A study of Mus musculus with 12 samples.

Results

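Neurons with immediate-early gene activity were the nuclei of hippocampal tissue that held transcripts of neurons together with transcripts of genes switched on within minutes of synaptic stimulation. A nucleus with 500 to 10000 detected genes was a neuron nucleus when it had at least 1 unique molecular identifier (UMI, a count of 1 captured transcript) of the vesicular glutamate transporters Slc17a7 and Slc17a6 or of the GABA-synthesizing enzymes Gad1 and Gad2, and fewer than 2 UMIs of the myelin gene Mobp. It was an active nucleus when at least 3 of the 6 genes Fos, Fosb, Junb, Arc, Egr4 and Btg2 had at least 1 UMI. Of 101083 neuron nuclei among 184957 nuclei, 3304 (3.27%) were active. The comparison nuclei were the 78725 neuron nuclei in which none of the 6 genes was detected, and the 19054 neuron nuclei with 1 or 2 of the genes belonged to neither side. The 6 genes chose the nuclei, so their values in active nuclei are given as a description and without a test, and they were tested only between genotypes over all neuron nuclei.

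The tissue was the left hippocampus, taken from female mice aged 6 or 12 months, and each genotype and age had 3 mice with 1 library each. The 3xTg-AD mice, of a mixed B6;129 strain, carry mutant human APP and MAPT transgenes, Tg(APPSwe,tauP301L)1Lfa, and the mutant Psen1tm1Mpm allele, and the WT mice were littermates. All mice were anesthetized with Avertin and perfused with PBS before the tissue was frozen, and nuclei were sorted and captured with 10x Genomics 3′ v3 chemistry. The 12 libraries held 79177051 to 128323908 UMIs, with medians of 4345 to 6698.5 UMIs per nucleus, and were sequenced in 1 batch. Each library is a separate mouse, and genotypes and ages were compared over libraries.

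Immediate-early genes need no new protein synthesis for their induction. Calcium entry through glutamate receptors and voltage-gated channels activates CaM kinase, MAP kinase and cAMP signaling, which act on the transcription factors CREB, SRF and MEF2 that already sit at the promoters. The first products are transcription factors (FOS and JUN proteins, which pair to form AP-1, the EGR zinc fingers, the NR4A orphan receptors and NPAS4) and the synaptic protein ARC. They are followed by inhibitors of the same signaling, such as dual-specificity phosphatases, and by late effectors that act at the synapse, such as Bdnf and Homer1. In the hippocampus a small set of neurons expresses these genes after an experience, and their products are used as a mark of recent activity.

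The promoters of the selecting genes are shown because they hold the element through which CREB acts. Of the 6 genes, 5 matched an entry of the RefSeq promoter table (GRCm38.p6), and the 250 bases before the transcription start are printed from 5′ to 3′ on the strand of the gene. Capitals mark the cAMP response element core, TGACG or its reverse complement CGTCA, and the full palindrome TGACGTCA, which contains both.
Fos, chr12:85473640-85473889, plus strand: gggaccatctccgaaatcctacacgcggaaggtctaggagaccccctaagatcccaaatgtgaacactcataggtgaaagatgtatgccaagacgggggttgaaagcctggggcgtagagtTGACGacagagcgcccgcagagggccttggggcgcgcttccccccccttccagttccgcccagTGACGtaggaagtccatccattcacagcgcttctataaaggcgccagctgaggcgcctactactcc
Fosb, chr7:19310046-19310295, minus strand: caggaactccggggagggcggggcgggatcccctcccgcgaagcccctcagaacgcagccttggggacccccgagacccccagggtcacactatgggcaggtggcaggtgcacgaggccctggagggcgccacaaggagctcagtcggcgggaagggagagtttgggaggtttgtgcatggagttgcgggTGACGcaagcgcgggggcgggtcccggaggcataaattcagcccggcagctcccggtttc
Junb, chr8:84978749-84978998, minus strand: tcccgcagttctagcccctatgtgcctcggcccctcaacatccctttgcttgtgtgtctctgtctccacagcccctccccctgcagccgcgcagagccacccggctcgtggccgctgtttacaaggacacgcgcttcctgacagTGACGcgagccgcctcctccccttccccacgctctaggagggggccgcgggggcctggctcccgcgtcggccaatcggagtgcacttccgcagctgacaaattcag
Egr4, chr6:85513590-85513839, minus strand: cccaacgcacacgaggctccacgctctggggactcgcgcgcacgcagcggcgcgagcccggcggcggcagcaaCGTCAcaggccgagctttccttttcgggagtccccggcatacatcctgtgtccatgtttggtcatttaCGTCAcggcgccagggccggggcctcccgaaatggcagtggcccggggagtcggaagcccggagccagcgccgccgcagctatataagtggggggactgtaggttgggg
Btg2, chr1:134079156-134079405, minus strand: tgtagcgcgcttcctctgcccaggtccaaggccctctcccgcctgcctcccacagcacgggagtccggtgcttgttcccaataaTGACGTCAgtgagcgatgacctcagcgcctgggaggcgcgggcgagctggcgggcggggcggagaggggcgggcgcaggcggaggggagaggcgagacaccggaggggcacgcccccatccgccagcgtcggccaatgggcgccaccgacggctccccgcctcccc

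All 5 of these windows held the core on at least 1 strand, against 17.8% of the 32851 promoters of the table. The core began 66 and 129 bases before the start of Fos, 60 bases before that of Fosb, 106 bases before that of Junb, and 109 and 177 bases before that of Egr4. Btg2, which encodes an antiproliferative protein, was the gene with the full palindrome, 166 bases before its start, and 1.55% of all promoters held it. The CArG box, the site of SRF, was in none of the 5 windows and in 1.47% of all promoters. Bases further from the start were not searched, so this does not show that the genes lack the site. Among 25 other immediate-early transcription factors with 28 promoter entries, 20 entries (71.4%) held the core and 4 (14.3%) the CArG box. The core was in 12 of 23 entries (52.2%) of heat shock genes, 11 of 25 (44.0%) of feedback regulators, 8 of 28 (28.6%) of late and synaptic effectors and 7 of 30 (23.3%) of upstream regulators. These are matches of letters in a window and were not tested as sites.

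Junb, an AP-1 subunit, was the gene most often detected in active nuclei (91.7%), followed by Btg2 (67.7%), Fos (65.3%), Arc (65.0%), Egr4 (56.1%) and Fosb (35.7%). Of the active nuclei 1636 had 3 of the genes, 897 had 4, 514 had 5 and 257 had all 6. The nuclei just outside the threshold, with 2 genes, numbered 3716 and held a mean of 3.28 UMIs of the 6 genes, and those just inside it, with 3 genes, held 6.38. The combinations of exactly 3 genes seen most often were Junb with Arc and Egr4 (396 nuclei, 12.0%) and Fos with Junb and Btg2 (395 nuclei, 12.0%). The 2 combinations differed in frequency between striatal and other neuron clusters, as given below.

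Pan-neuronal markers were present in the active nuclei. Over the 2917 active nuclei that could be matched to comparison nuclei, Rbfox3 (the antigen NeuN) was detected in 89.8%, Snap25 in 99.1% and Meg3 in 99.97%, against 89.2%, 98.3% and 99.9% of matched nuclei. The summed levels of markers of other cell types had overlapping ranges: the sum of 8 oligodendrocyte genes was 95.9 to 219 CPM (the UMIs of a gene scaled to a common library total) in active nuclei over the 12 libraries and 86.9 to 228 in matched nuclei, that of 9 astrocyte genes 607 to 1150 and 517 to 1226, that of 8 microglia genes 54.9 to 81.5 and 51.0 to 81.3, and that of 8 endothelial and mural genes 19.2 to 70.1 and 18.6 to 65.5. The 6 oligodendrocyte precursor genes summed to 967 to 1295 CPM in active and 1054 to 1450 in matched nuclei, mostly from Lhfpl3 and Tnr, and the defining gene Pdgfra was at 3.203 and 3.043 CPM. Summed over all libraries, 2 of 8 oligodendrocyte, 3 of 9 astrocyte and 3 of 6 precursor genes had a higher level in active than in matched nuclei. So did 3 of 8 microglia genes and 4 of 8 endothelial and mural genes. Single genes called higher were Bmpr1b of the astrocyte list (0.30), Mbp of the oligodendrocyte list (0.21) and Tgfbr1 of the microglia list (0.33). Of the active nuclei 136 (4.12%) fell in 11 clusters with glial or vascular markers, which held 7.58% of all neuron nuclei, and 144 (4.36%) had at least 2 UMIs of both transmitter classes, against 1.70% of nuclei without the genes. In oligodendrocyte nuclei (at least 5 UMIs of Mobp and no transmitter UMI), which should lack neuronal activity, 0 to 2 nuclei per library had 3 of the 6 genes, out of 408 to 1028, at a median depth of 2377.5 to 3637.5 UMIs, below that of neuron nuclei. Between 29 and 105 barcodes were shared by each of 66 pairs of libraries, at most 0.650% of a library.

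Active nuclei were deeper than the comparison nuclei, with a median of 9308.5 against 7618 UMIs and 3428.5 against 3120 genes, and detection of 3 genes depends on depth. Shares were therefore compared after each nucleus with at least 3000 UMIs was thinned to 3000, which left out 4850 of the neuron nuclei and left 1209 active nuclei among 96233. Shares as deposited are given beside them.

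As a pooled class, inhibitory neurons were active more often than excitatory neurons. With the class set by the larger of the 2 transmitter sums, 2237 of 55995 inhibitory nuclei (3.995%) and 1008 of 42843 excitatory nuclei (2.35%) were active as deposited, although excitatory nuclei were deeper (median 8944 against 7249 UMIs). At 3000 UMIs the share per library was 0.402% at the lowest, 0.597% at the median and 1.71% at the highest in excitatory nuclei, and 0.712%, 1.58% and 2.95% in inhibitory nuclei. The share was lower in excitatory than in inhibitory nuclei in 12 of 12 libraries, by 0.903 percentage points on average (two-sided exact sign-flip permutation test, p = 0.000488, the smallest that 12 libraries allow, adjusted p = 0.00244 over 5 share tests). Without the striatal clusters described next the difference was 0.480 percentage points (p = 0.00781, exact permutation test). Inhibitory clusters differed widely. As deposited, 375 of 1812 nuclei (20.7%) were active in that led by Myo5b and Prdm16. In that led by 1700016P03Rik, described below, 375 of 1249 (30.02%) were. The largest cluster, with mainly inhibitory transmitter UMIs and led by B230217J21Rik, had 63 of 5570 (1.13%). That led by Hmcn1 and Pvalb had 0.219%. Both are below the 2.35% of all excitatory nuclei, so the difference holds for the pooled class and not for each inhibitory cluster. The part of single clusters in the difference was not tested.

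Active nuclei occurred in 57 of 60 clusters of neuron nuclei, made by k-means on 2000 variable genes without the selecting genes, the other activity genes and the heat shock genes. The cluster with the highest share was led by 1700016P03Rik, the host transcript of the activity-regulated microRNAs miR-212 and miR-132, with the imprinted genes Plagl1, Peg10 and Dlk1 among its leading genes. In this cluster 375 of 1249 nuclei (30.02%) were active, and its thinned share was 16.9% ± 9.29 (SD, n = 12 libraries). Because 1700016P03Rik was not among the genes left out of the clustering and Fos, Btg2 and Junb were among the leading genes of the cluster, its share is a description of how the cluster was formed as much as of a kind of neuron. The next cluster was led by Myo5b, Prdm16, Clic4 and Ano1, with 375 of 1812 nuclei active (20.7%) and a thinned share of 9.37% ± 4.37 (SD, n = 12 libraries).

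**Figure D1:**
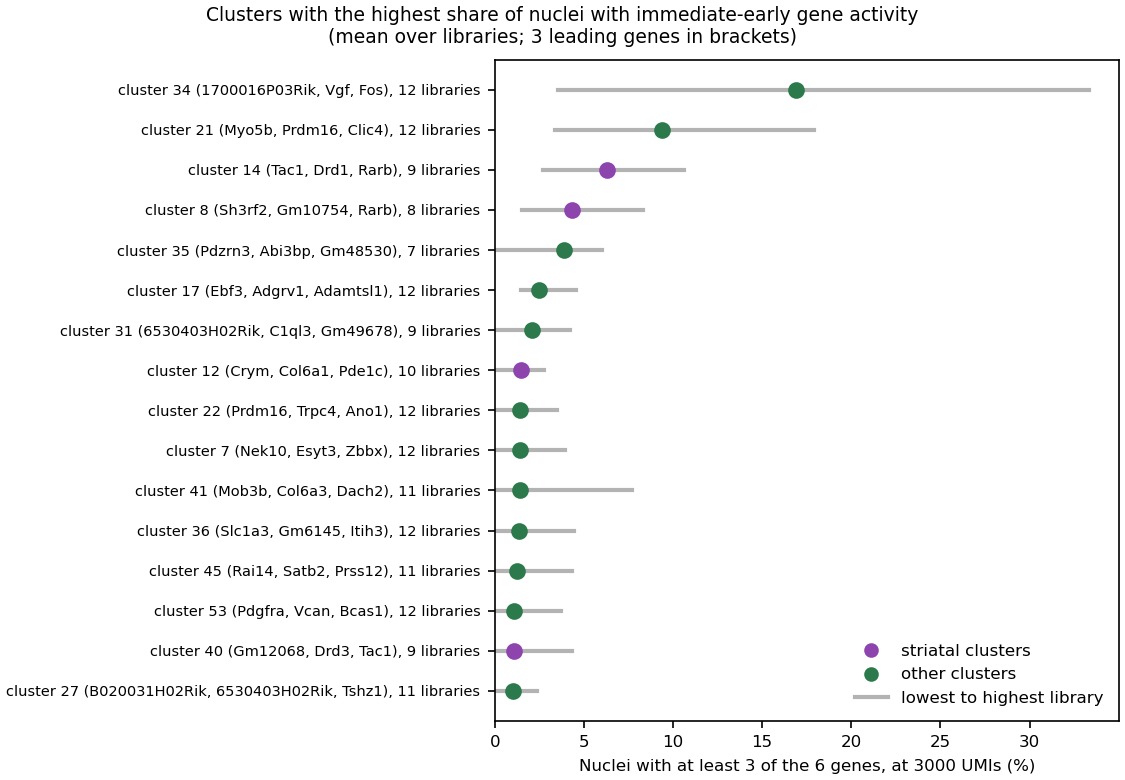
Share of nuclei with at least 3 of the 6 genes at 3000 UMIs (x axis, percent) in the clusters with the highest shares (y axis), as the mean over libraries (points) with the lowest and highest library (lines), striatal clusters in purple. The cluster led by 1700016P03Rik has a mean of 16.9% and the cluster led by Tac1 and Drd1 a mean of 6.28%.

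Active nuclei were found in each kind of hippocampal principal neuron that was named. Clusters with markers of dentate granule neurons had 22 active nuclei of 4138 as deposited (0.532%, and a mean over libraries of 0.133% at 3000 UMIs), those with markers of CA1 and subiculum pyramidal neurons 52 of 2050 (2.54% and 0.211%) and that with markers of CA3 and CA2 pyramidal neurons 18 of 590 (3.05% and 0.472%). The thinned share of the CA3 and CA2-like cluster was 0% to 3.77% over 8 libraries (SD 1.33), so its mean rests on the highest library. Of the unnamed clusters with mainly excitatory transmitter UMIs, 1 led by Pdzrn3 and Abi3bp, with Slc30a3 and Slc17a7 among its leading genes, had 161 of 1248 (12.9% and 3.86%), and 1 with Neurod6 among its leading genes had 42 of 992 (4.23% and 0.549%). Both were singled out after their values were seen. Sst-like interneurons had 46 of 1458 (3.16% and 0.810%), and an inhibitory cluster led by Hmcn1, Pvalb and Six3 had 3 of 1367 (0.219%, and 0% at 3000 UMIs). Tissue outside the hippocampus was present although the label gives hippocampus: thalamic-like clusters held 8228 neuron nuclei, of which 44 were active (0.535% and 0.0418%), and a hypothalamic-like cluster held 3405, of which 76 were active (2.23% and 0.811%). The CA1 and subiculum-like nuclei were thus above the hypothalamic-like nuclei as deposited and below them at equal depth, and these differences were not tested. Active hypothalamic-like and Sst-like nuclei had mostly Fos (89.5% and 93.5%) and seldom Arc (15.8% and 17.4%), while 73.1% of active CA1 and subiculum-like nuclei had Arc.

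Clusters with genes of striatal projection neurons held 27.3% of the active nuclei. This set of 5 clusters carried the dopamine receptor markers of striatal neurons or was led by genes that include Rarb, a retinoic acid receptor of striatal neurons. The set was formed after the leading genes were seen and held 903 active nuclei, beside 11.4% of all neuron nuclei (11513). Its share of the neuron nuclei differed widely between libraries. It was 4.77%, 10.2% and 13.8% in the 6-month 3xTg-AD libraries, 7.05%, 9.91% and 27.2% in the 6-month WT libraries, 23.6%, 24.7% and 6.48% in the 12-month 3xTg-AD libraries, and 0.0121%, 1.995% and 0.290% in the 12-month WT libraries. None of the 12-month WT libraries reached the striatal share of the lowest 3xTg-AD library of that age, so at 12 months genotype and the amount of striatal tissue in the sample cannot be told apart in values over all neuron nuclei.

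As a class of 2 clusters, D1-like neurons were active more often than D2-like neurons. D1-like neurons express the dopamine receptor Drd1 and the substance P precursor Tac1, and D2-like neurons express Drd2, Adora2a and Penk. As deposited, the D1-like cluster led by Tac1 and Drd1 had 299 of 2399 nuclei active (12.5%, median 7031 UMIs). The smaller D1-like cluster, led by Gm12068, Drd3 and Tac1, had 11 of 905 (1.22%, median 3257 UMIs). This was below the D2-like cluster, with 104 of 2190 (4.75%, median 7318.5 UMIs), and the part of depth was not tested. The 399 active nuclei of the striatal cluster led by Sh3rf2, Gm10754 and Rarb and the 90 of that led by Crym were in neither class. Over the 9 libraries with at least 20 nuclei of both, the thinned share was 5.17% ± 2.08 in D1-like and 1.08% ± 1.13 in D2-like nuclei (SD). It was higher in D1-like nuclei in 9 of 9 libraries, by 1.34 to 7.06 percentage points and by 4.09 on average. The comparison was not among the planned tests, so it is a description and no test is given. Tac1, which leads the larger D1-like cluster and was not among the genes left out of the clustering, itself rose in striatal active nuclei (log2 fold change 1.25, higher in 9 of 9 libraries), and its part in the difference was not tested.

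The selecting genes were detected in other proportions in striatal active nuclei than elsewhere. Among the 903 striatal active nuclei, 95.1% had Junb, 91.3% Arc, 80.3% Egr4, 42.7% Fos, 38.6% Btg2 and 26.1% Fosb. Among the 2265 active nuclei of the remaining neuron clusters, 90.4% had Junb, 55.1% Arc, 47.2% Egr4, 74.1% Fos, 78.7% Btg2 and 39.5% Fosb. Over single libraries the ranges were apart for Arc (81.6% to 95.7% in striatal and 36.6% to 69.4% in other active nuclei), Egr4, Fos and Btg2. Those of Junb and Fosb overlapped. The combination of Junb, Arc and Egr4 alone made up 287 striatal active nuclei (31.8%) and 95 of the others (4.19%), while Fos, Junb and Btg2 alone made up 10 (1.11%) and 363 (16.03%). Matched striatal active nuclei were shallower than the others (median 8057 against 10862 UMIs), and the part of depth was not tested.

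The same genes were compared over all neuron nuclei of each kind, active or not, in the 10 libraries with at least 100 striatal nuclei, where no nucleus is chosen by them. Egr4, a zinc-finger transcription factor, was at 12.3 to 43.7 CPM in striatal and 3.37 to 6.30 CPM in the other neuron nuclei (log2 ratio 1.86 ± 0.44, SD, n = 10 libraries). Arc was at 14.2 to 73.9 against 5.42 to 13.3 CPM (1.57 ± 0.46) and Junb at 24.4 to 126 against 15.01 to 31.3 CPM (1.52 ± 0.38), and the ranges of Junb overlap. Fosb was at 3.69 to 13.9 against 2.51 to 5.37 CPM (0.91 ± 0.57). These 4 genes were higher in striatal nuclei in 10 of 10 libraries. The comparison was made after the combinations of the 6 genes in striatal active nuclei were seen, so it is a description and no test is given. Fos was at 5.12 to 15.03 against 8.65 to 17.6 CPM and higher in striatal nuclei in 4 of 10 libraries (log2 ratio -0.09 ± 0.41), and Btg2 at 4.40 to 23.3 against 8.96 to 16.7 CPM and higher in 3 of 10 (-0.19 ± 0.42). Striatal and other nuclei share their libraries, and the lines that join them in the plot of the 6 genes rise in every library for Fosb, Junb, Arc and Egr4.

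**Figure D2:**
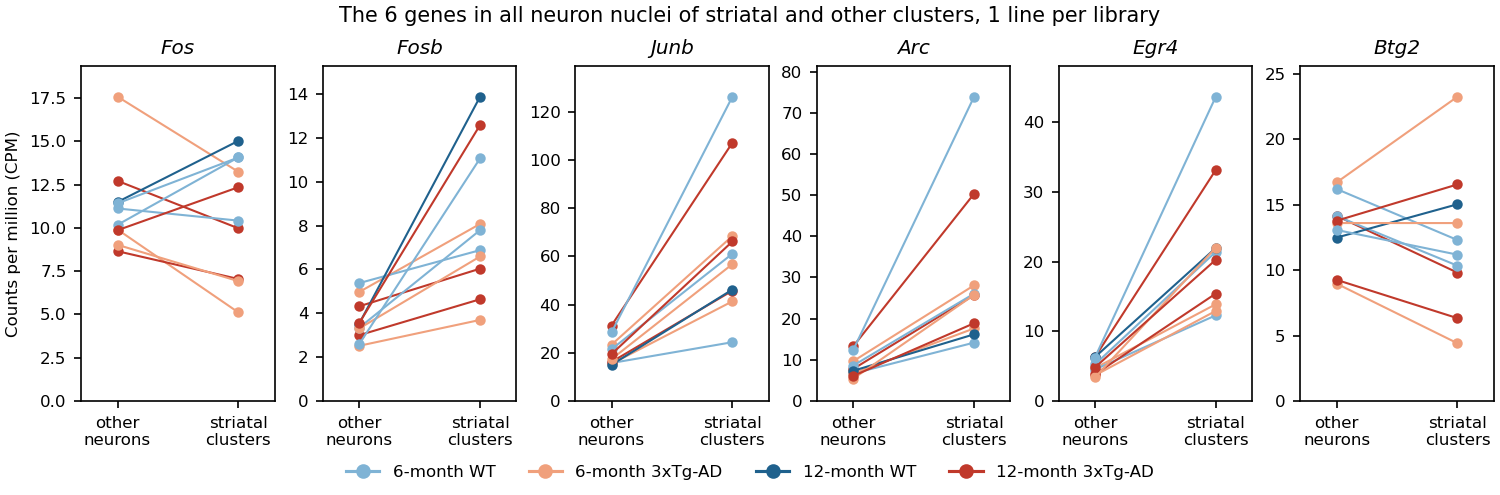
Level of the 6 selecting genes in CPM (y axis, linear) summed over all neuron nuclei of striatal and of the other neuron clusters (x axis), with 1 line for each of the 10 libraries in that comparison, colored by group (12-month WT replicates 4 and 12 are not shown). Egr4 sits between 12.3 and 43.7 CPM in striatal nuclei and between 3.37 and 6.30 CPM in the others, while the lines of Fos and Btg2 cross.

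Genes outside the rule were compared between active nuclei and matched nuclei. Each active nucleus was set against 3 nuclei with none of the 6 genes from the same library and cluster and with the nearest UMI total, which was possible for 2917 active nuclei (88.3%), and counts were summed per library and side (median 9796 against 9111 UMIs). Of 15210 genes tested with edgeR and Benjamini-Hochberg adjustment, 1522 (10.0%) were called higher and 1070 (7.03%) lower when the adjusted p was under 0.05 and log2 changes exceeded 0.2 in size, 17.0% in all, and the median log2 fold change of all genes was -0.02. The activity lists below rose far more often than these shares. The selecting genes and the genes of the neuron rule were kept out of the test. The nuclei were chosen by genes that are induced together with many on the lists, so the counts describe what accompanies the 6 genes in the same nuclei, and they do not come from an independent measure of activity.

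All 24 tested immediate-early transcription factors rose, with a median log2 fold change of 2.27. The filter on low counts can be passed through the active side alone. A gene near 0 in matched nuclei, such as Egr2, then enters where it is high, and 1 of the 25 listed genes did not pass. The count of 24 thus depends in part on the filter, and so do the counts of the other lists. Egr1, a zinc-finger factor and a common marker of activity, was at 141 CPM at the lowest, 164 at the median and 197 at the highest over the 12 libraries in active nuclei and at 10.8, 15.9 and 26.9 CPM in matched nuclei (log2 fold change 3.27 ± 0.07, SE, edgeR adjusted p = 1.47e-22). Npas4, a factor specific to neurons that acts on inhibitory synapses, was at 52.8, 88.6 and 136 CPM against 3.97, 6.13 and 7.80 CPM (3.99 ± 0.10, edgeR adjusted p = 8.51e-22). No library overlapped between the 2 sides for either gene. Nr4a1, an orphan nuclear receptor, was at 78.0, 115 and 135 CPM against 14.2, 18.5 and 28.9 CPM (2.55 ± 0.08). Egr2 had the largest change of the list, from 0, 0.143 and 0.874 CPM in matched nuclei to 4.98, 16.2 and 27.1 CPM in active nuclei (5.57 ± 0.19). Large increases were also found for Egr3 (3.72), Nr4a3 (3.49) and the FOS-related Fosl2 (3.45), and Jun, the partner of FOS, rose by 2.80. Klf6 had the smallest increase (0.35).

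Of 25 tested feedback regulators 22 rose, none fell, and the median was 2.01. The list holds inhibitors of the signaling that induces these genes and also genes with other roles. Dusp1, a phosphatase of MAP kinases, was at 31.7, 41.9 and 59.8 CPM against 1.81, 5.28 and 6.88 CPM (3.10 ± 0.08). Plk2, a kinase that weakens synapses after strong activity, was at 79.5, 101 and 341 CPM against 19.5, 28.6 and 79.1 CPM (2.01 ± 0.04). Gadd45b (3.06), which acts in DNA demethylation, and the CREB-pathway inhibitor Sik1 (2.75) rose in 12 of 12 libraries. Nfkbia (0.25), Nedd9 (0.21) and Rasgef1b (0.06) were not called.

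Of 25 late and synaptic effectors, 21 rose, 2 fell, and the median was 1.37. Homer1, whose activity-induced short form loosens the postsynaptic scaffold, was at 311, 508 and 581 CPM in active and 123, 167 and 279 CPM in matched nuclei (1.44 ± 0.06). Bdnf, a neurotrophin that strengthens synapses, was at 19.1, 38.6 and 55.7 against 5.51, 16.6 and 20.9 CPM (1.37 ± 0.10). The secreted peptides Vgf (1.56) and Scg2 (1.49) and the pentraxin Nptx2 (2.43), which gathers AMPA receptors, rose in all 12 libraries. The opioid precursors Pdyn (1.82) and Penk (0.98) rose in 11 of 12. The genes that fell were Igf1, a growth factor (-0.41, edgeR adjusted p = 0.0167), and the activin-type receptor Acvr1c (-0.27, edgeR adjusted p = 0.00874), each lower in 10 of 12 libraries, and Crh (0.51) and Lingo1 were not called.

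The machinery that carries the signal to these promoters was called about as often as other genes. Of 28 upstream regulators 5 rose and none fell, with a median of 0.06, beside 10.0% of all genes called higher and 7.03% lower. The 5 were Srf (0.75), which encodes serum response factor, its partner Elk4 (0.69), the CREB kinases Rps6ka3 (0.36) and Rps6ka2 (0.21), and Prkacb (0.36), a catalytic subunit of protein kinase A. Creb1 was at 53.0, 73.0 and 86.7 CPM in active and 65.5, 73.7 and 78.5 CPM in matched nuclei (0.03 ± 0.04) and was not called. Of 25 glutamate receptors and calcium channels 1 rose and 2 fell, with a median of -0.03, and the same background applies. Grin1, the obligatory NMDA receptor subunit, rose (0.24), and among those that fell was the NMDA receptor subunit Grin2d (-0.32). The 14 tested GABA receptor genes had log2 fold changes of -0.18 to 0.17, under the size needed for a call.

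**Figure D3:**
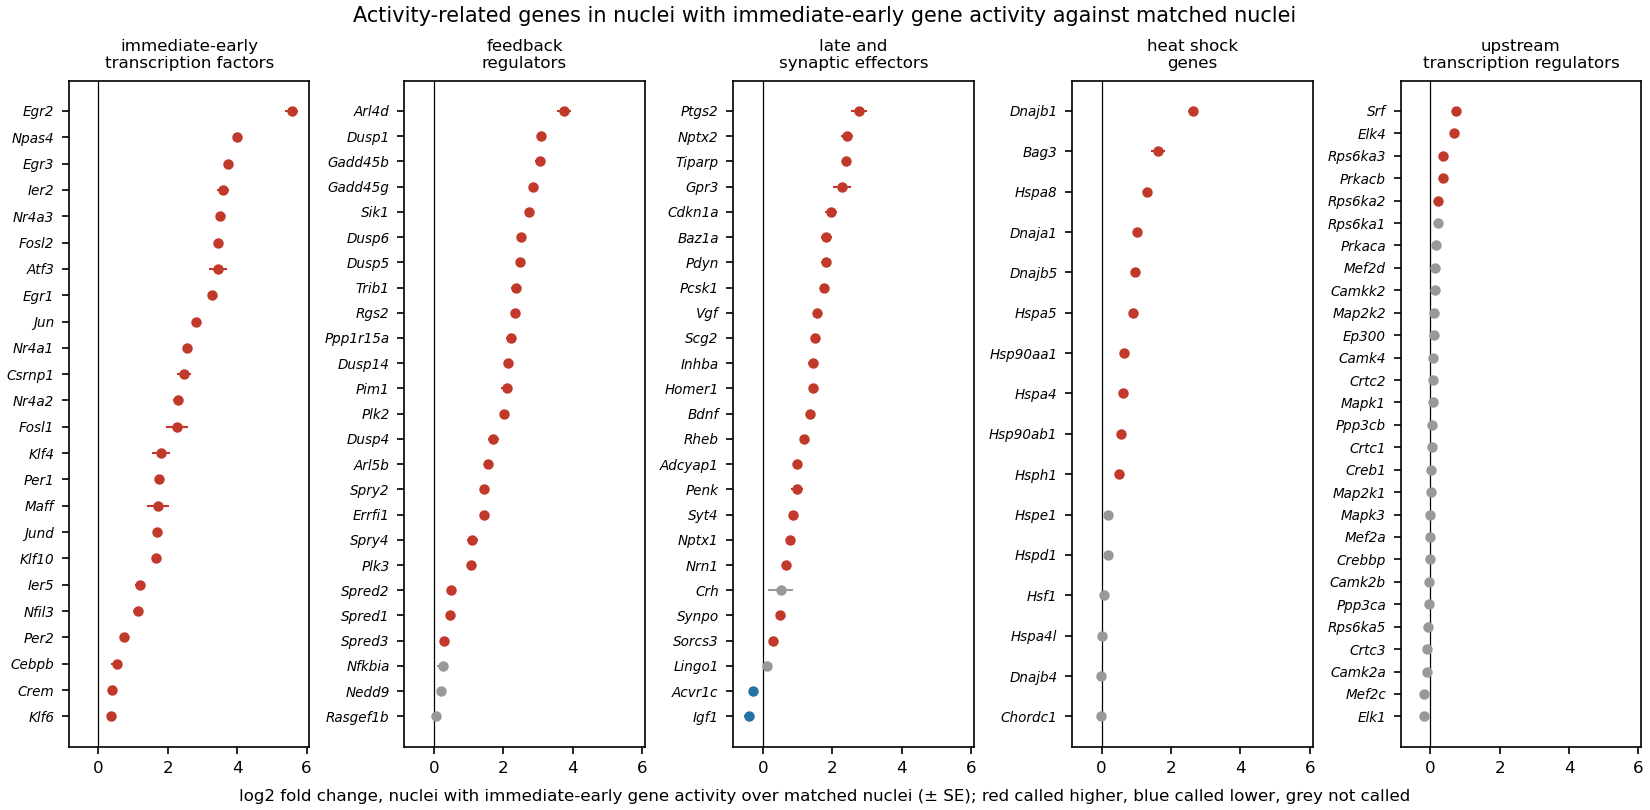
Log2 fold change of each tested gene of the lists (y axis) in active nuclei over matched nuclei (x axis), with SE over 12 libraries as bars, red for genes called higher, blue for lower and grey for not called. Immediate-early transcription factors reach 5.57 (Egr2), while 23 of the 28 upstream regulators are grey.

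Genes that accompanied the 6 genes outside these lists included a long noncoding RNA and neuropeptides. By a rule of size among genes changed in the same direction in all 12 libraries, with a mean of at least 20 CPM in the higher state (which leaves out Egr2), the 15 largest increases were those of Avp, Npas4, Egr3, Nr4a3, Gm13889, Fosl2, 1700016P03Rik, Egr1, Dusp1, Gem, Gadd45b, Nts, Gadd45g, Jun and Sik1. 1700016P03Rik was at 169, 256 and 376 CPM in active and 11.9, 28.2 and 43.6 CPM in matched nuclei (3.33 ± 0.07). Avp, the vasopressin precursor of hypothalamic neurons, had the widest spread between libraries, 25.7, 109 and 781 CPM against 0.780, 2.58 and 26.7 CPM (4.35 ± 0.24). Of 8 tested hypothalamic markers 3 rose, namely Avp, Oxt (1.87) and Fezf1 (1.63), and 2 fell, Pmch (-1.99, edgeR adjusted p = 0.00192) and Prlr (-0.41, edgeR adjusted p = 0.00125). Of all genes 10.0% were called higher and 7.03% lower. Nts, which encodes neurotensin, was at 15.4, 40.2 and 109 CPM against 3.13, 4.94 and 7.26 CPM (3.04 ± 0.16). The matching uses clusters that can hold several kinds of neuron, so a kind that is more frequent among active nuclei of a cluster and a gene that rises with activity cannot be told apart here.

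Among the genes that met this rule, decreases were smaller than increases. The 15 largest decreases by the same rule ranged from -0.63 for Matn2, a matrix protein, to -0.40 for Rad50, and included the cadherin Cdh7 (-0.58), the chloride channel Ano2 (-0.52) and the ephrin receptor Epha3 (-0.46). Genes outside the rule fell further, such as Pmch (-1.99), and the lowest log2 fold change of all genes tested was -2.96. Cdh7 was at 54.7, 76.3 and 102 CPM in active nuclei and 83.1, 122 and 132 CPM in matched nuclei, lower in 12 of 12 libraries with overlapping ranges. Matn2 and Ano2 turned to increases of 0.17 and 1.01 when matching used the library and UMIs but not the cluster.

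Heat shock genes, chaperones induced by protein-folding stress, moved with the activity genes. Of 16 tested, 10 rose and none fell, with a median of 0.59, beside 10.0% of all genes called higher and 7.03% lower. Dnajb1, a cochaperone, was at 10.0, 24.5 and 35.8 CPM against 2.36, 3.51 and 4.77 CPM (2.64 ± 0.15), and the constitutive chaperone Hspa8 at 40.6, 86.0 and 114 against 20.9, 32.6 and 63.1 CPM (1.31 ± 0.06). Bag3 (1.63), Dnaja1 (1.01), Dnajb5 (0.96) and Hspa5 (0.90) also rose. Stress of the tissue and stimulation of the neurons before or during collection cannot be told apart by these genes, and the part of tissue handling in the activity was not tested.

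Levels followed the number of selecting genes detected. The summed level of the 25 other immediate-early transcription factors was 182, 267, 476, 692, 991 and 1509 CPM (median of 12 libraries) in nuclei with 0, 1, 2, 3, 4 and 5 or 6 of the genes, and it rose at each step in 12 of 12 libraries. Feedback regulators went from 756 to 1887 CPM and late and synaptic effectors from 1044 to 3034 CPM, rising at each step in 12 of 12 libraries too. Heat shock genes went from 752 to 1260 CPM, with a rise at each step in 9 of 12 libraries, and upstream regulators from 3979 to 4585 CPM, with a rise at each step in 2 of 12. Egr1 had medians of 12.3, 35.1, 94.2, 139, 180 and 217 CPM and Npas4 of 6.34, 9.61, 25.0, 46.4, 96.4 and 185 CPM over the same steps. Nuclei with 2 genes, which the rule leaves out, were thus between the comparison nuclei and the active nuclei for both genes. The median depth also grew over these steps, from 7618 to 10012 UMIs, and its part in the order was not tested. The nuclei of these steps were not matched by cluster.

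**Figure D4:**
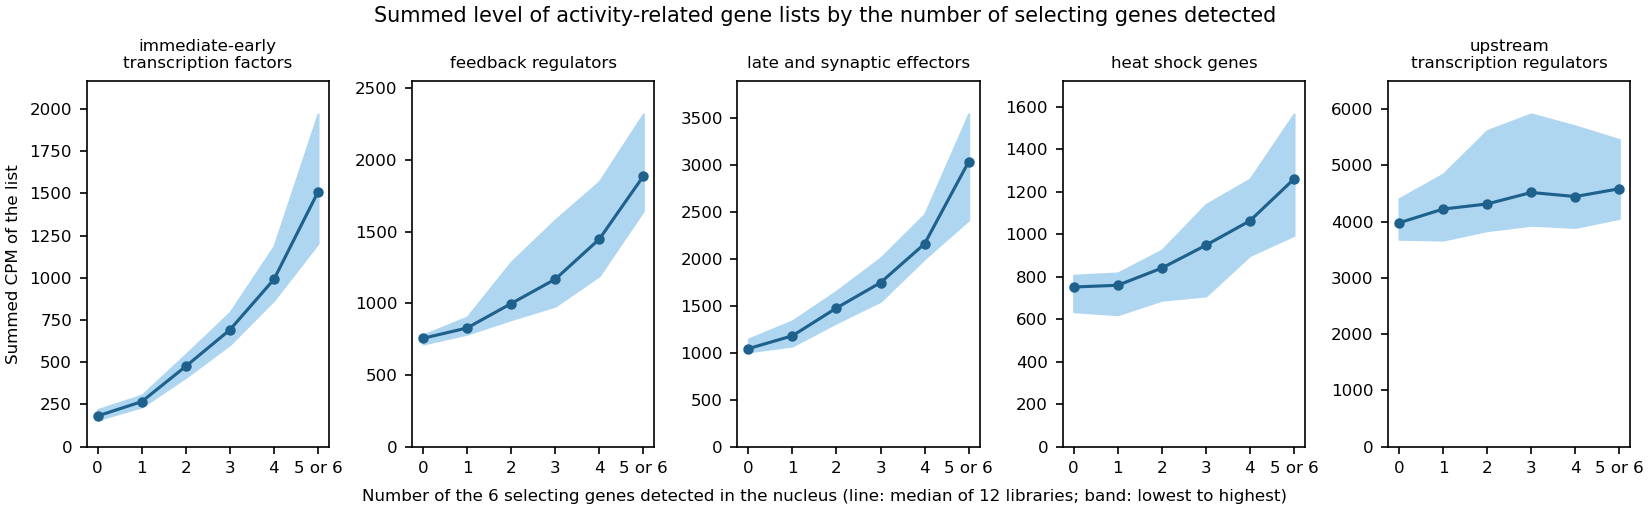
Summed CPM of 5 gene lists (y axis, linear from 0) in neuron nuclei by the number of the 6 selecting genes detected (x axis), as the median of 12 libraries (line) with the lowest and highest library (band). Immediate-early transcription factors go from 182 CPM with 0 genes to 1509 CPM with 5 or 6, and upstream regulators from 3979 to 4585 CPM.

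Beyond the selecting genes, the contrast of active and matched nuclei differed between striatal and other neuron clusters. The selecting genes chose both sides of this contrast, and Egr4, Arc, Junb and Fosb had higher levels in striatal nuclei. The same rule can thus pick nuclei in other states of activity in striatal clusters than elsewhere. The part of this choice in the differences below was not tested. The contrast of active and matched nuclei was compared between the 2 kinds within the 9 libraries that had both, a test added after the data were seen, and of 13845 genes 232 (1.68%) had a larger and 300 (2.17%) a smaller contrast in striatal nuclei. Of the 22 immediate-early transcription factors tested 4 were larger, namely Nr4a1, Nr4a3, Npas4 and Klf10, and none was smaller. The levels and fold changes given for each kind come from separate fits, over these 9 libraries for striatal nuclei and over all 12 for the other neuron nuclei, so their subtraction need not give the tested difference. Nr4a1 was at a mean of 173 CPM in active and 8.74 CPM in matched striatal nuclei (log2 fold change 4.08) and at 103 and 23.6 CPM in the other neuron nuclei (2.17), a difference of 1.86 (edgeR adjusted p = 4.22e-11). Dusp6, a phosphatase specific for ERK, had log2 fold changes of 3.62 and 2.24, with a difference of 1.31 (edgeR adjusted p = 0.00644). Penk, a marker of D2 neurons as well as an activity-regulated gene, had 0.57 and 1.77, with a difference of -1.24 (edgeR adjusted p = 0.00363). Other D2 markers also had a smaller contrast, Drd2 with -1.17 and 0.11 (a difference of -1.27) and Sp9 with -0.97 and 0.23 (-1.26), so fewer D2 neurons among striatal active nuclei and a smaller response of Penk cannot be told apart. Egr1 rose in both kinds, by 2.99 and 3.37, and the difference was not called (-0.38, edgeR adjusted p = 0.177).

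The share of active neurons was compared between genotypes at each age. At 3000 UMIs the 6-month libraries had shares of 1.51%, 0.789% and 1.13% in 3xTg-AD and 1.28%, 1.19% and 2.38% in WT (means 1.14% ± 0.36 and 1.61% ± 0.66, SD, n = 3). The groups overlapped, and the difference of -0.472 percentage points did not pass the test (two-sided exact permutation test, p = 0.4, adjusted p = 0.606 over 5 share tests). It was -0.0909 without WT replicate 11 and -0.295 without 3xTg-AD replicate 5. The 12-month libraries had 2.25%, 1.06% and 1.08% in 3xTg-AD and 0.623%, 1.03% and 0.561% in WT (1.46% ± 0.68 and 0.738% ± 0.255, SD, n = 3). Each 12-month 3xTg-AD library was above each WT library and the mean difference was 0.724 percentage points (exact permutation test, p = 0.1, adjusted p = 0.25, and 3 libraries per group cannot give a p below 0.1). Without 3xTg-AD replicate 2 it was 0.330.

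Without the striatal clusters the 12-month difference was 0.344 percentage points (exact permutation p = 0.3) and the 6-month difference -0.110 (exact permutation p = 0.6). With every library weighted to the same mix of the 34 clusters (of 60) that had at least 10 nuclei in each library, which leaves out the striatal clusters, they were 0.0506 and 0.107 (exact permutation p = 1 for both), so the 6-month difference turned. The 12-month shares at the same mix were then 0.919%, 0.923% and 0.995% in 12-month 3xTg-AD libraries and 1.09%, 1.04% and 0.553% in WT libraries. Over both ages the genotype difference was 0.126 percentage points (exact permutation p = 0.695, adjusted p = 0.695), and its direction turned under some settings given in the last section. The genotype difference was 1.20 percentage points larger at 12 than at 6 months (exact permutation p = 0.05), and this became 0.455 without the striatal clusters (p = 0.19) and -0.0562 at the same mix (p = 0.935, exact permutation tests). Between ages the share at 12 minus that at 6 months was -0.278 percentage points (exact permutation p = 0.485), with means that went from 1.14% to 1.46% in 3xTg-AD and from 1.61% to 0.738% in WT. It was -0.146 without the striatal clusters, -0.0880 without 6-month WT replicate 11, -0.475 without 12-month 3xTg-AD replicate 2, and -0.177 and -0.183 without 12-month 3xTg-AD replicates 6 and 10. As deposited, the 6-month shares were 3.84%, 2.44% and 2.89% in 3xTg-AD and 3.57%, 3.25% and 5.67% in WT libraries. Those of 12 months were 5.43%, 2.89% and 2.58% and, in WT, 1.96%, 2.37% and 1.92%, from 126 to 491 active nuclei per library.

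**Figure D5:**
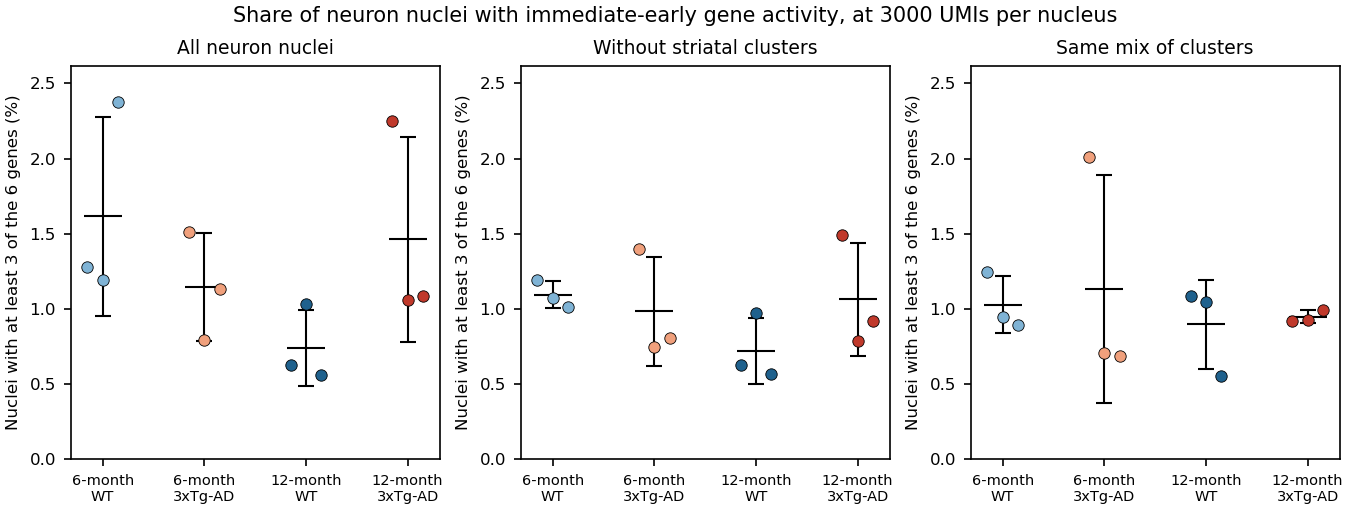
Share of neuron nuclei with at least 3 of the 6 genes at 3000 UMIs (y axis, percent, from 0) per library (points), with mean and SD of 3 libraries (bars), by group (x axis), for all neuron nuclei, without striatal clusters and at the same mix of clusters. At 12 months the 3xTg-AD mean is 1.46% against 0.738% in WT over all neuron nuclei, and 0.946% against 0.895% at the same mix.

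The activity program itself was compared between genotypes. In a single edgeR fit over 12 libraries, the contrast of active and matched nuclei differed between 3xTg-AD and WT for 0 of 15210 genes (0%), with 629 genes at an unadjusted p under 0.05 and 0 calls by DESeq2. On simulated data this fit called 70 of 100 genes changed by 1 on the log2 scale and 12 of 100 changed by 0.5. The simulation gave each library the same expected profile and each gene the same dispersion. The real libraries differ in their mix of neurons, so these rates can be higher than those in the data. Differences of these sizes could thus go uncalled. The median difference was -0.07 on the log2 scale for immediate-early transcription factors, 0.05 for feedback regulators, 0.03 for late and synaptic effectors and 0.01 for heat shock genes. At an unadjusted p under 0.05 were 1, 2, 1 and 0 genes of these lists, of 24, 25, 25 and 16 tested, beside 4.14% of all genes.

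Active nuclei of 3xTg-AD and WT mice were also compared directly. At 6 months 0 genes (0%) were called higher and 5 (0.0389%) lower in 3xTg-AD of 12868 tested with edgeR, with 664 at an unadjusted p under 0.05, and DESeq2 called 10 higher and 24 lower. Cfap54, a gene of motile cilia, was at 39.1, 45.4 and 40.9 CPM in the 3xTg-AD libraries and 110, 97.1 and 96.0 CPM in the WT libraries (log2 fold change -1.27 ± 0.13, edgeR adjusted p = 0.0161). Bet1, a SNARE protein of vesicle transport, was at 10.5, 11.7 and 11.8 CPM against 34.2, 46.6 and 48.9 CPM (-1.93 ± 0.20, edgeR adjusted p = 0.0161). Also called lower were AC149090.1 (-2.34), Gm17167 at 0, 0.468 and 0.320 CPM against 18.3, 19.3 and 20.8 CPM, and Gm49980 at 0, 0 and 0.320 CPM against 10.6, 13.5 and 9.83 CPM. All 5 genes were called lower in all neuron nuclei too, of which the active nuclei are a part. The count of 5 went to 1 without 3xTg-AD replicate 1, 3xTg-AD replicate 5 or WT replicate 7, to 2 without 3xTg-AD replicate 9 and to 8 without WT replicate 3.

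At 12 months 41 genes (0.348%) were higher and 19 (0.161%) lower in 3xTg-AD of 11787 tested. Cfap54 was again lower, at 39.3, 43.8 and 52.8 against 137, 145 and 157 CPM (-1.62 ± 0.13, edgeR adjusted p = 0.00365), as was Mri1, an enzyme of methionine salvage, at 7.40, 6.36 and 9.64 against 30.9, 27.6 and 38.1 CPM (-1.97 ± 0.22, edgeR adjusted p = 0.00799). Both genes were named by a rule that asked for groups without overlap, so that trait is no further result. Among the increases were Tac1, at 80.9, 96.6 and 76.3 against 21.7, 19.8 and 34.3 CPM (1.84 ± 0.22, edgeR adjusted p = 0.0131), Gpr149 (1.79), Pcp4l1 (1.95) and the striatal marker Drd1 (3.91). Without the striatal clusters 3 genes were higher and 9 lower, with Tac1 (0.40), Pcp4l1 (0.28) and Gpr149 (0.88) not called. Striatal clusters held 42.5%, 41.1% and 15.4% of the active nuclei in these 3xTg-AD libraries and 0%, 3.68% and 0% in the WT libraries, in the order of the values above, so in the values over all active nuclei genotype and striatal share cannot be told apart. Of the calls in active nuclei, 30 of the 41 higher and 13 of the 19 lower were made in all neuron nuclei too, where 220 and 296 genes were called. The count at 12 months ranged from 1 to 764 as single libraries were left out, with 1 without WT replicate 4, 2 without WT replicate 12, 4 without 3xTg-AD replicate 6, 9 without WT replicate 8, 14 without 3xTg-AD replicate 2 and 764 without 3xTg-AD replicate 10.

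Of 114 tested genes of the activity, upstream and heat shock lists, edgeR called none between genotypes in active nuclei at either age, with a smallest adjusted p of 0.0828. On simulated data, with the same expected profile in each library, these fits called 10 of 100 genes changed by 0.5 on the log2 scale at 6 months. At 12 months they called 11 of 100. The rates in the real data can be lower. At an unadjusted p under 0.05 were 12 of the 114 at 6 months and 34 at 12 months, beside 5.16% and 14.4% of all genes tested. DESeq2 called 0 and 6 of the 114 (Arl4d, Camk4, Inhba, Pdyn, Penk and Synpo), beside 34 of 12868 and 252 of 11787 genes in all. Egr1 was at 167, 148 and 200 CPM in 3xTg-AD and 149, 151 and 173 CPM in WT at 6 months, and at 189, 188 and 172 against 147, 176 and 150 CPM at 12 months, with overlapping groups at both ages. Bdnf was at 48.3, 42.1 and 44.4 against 33.1, 30.1 and 18.5 CPM at 6 months (0.76 ± 0.20) and was not called (edgeR adjusted p = 0.658). At 12 months it was at 57.3, 38.9 and 26.2 against 53.2, 33.0 and 37.5 CPM (0.10 ± 0.33).

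The selecting genes can be tested between genotypes over all neuron nuclei, where they choose nothing. None of the 6 was called by edgeR at either age, beside 1.27% of 20951 genes called at 6 months (0.329% higher and 0.940% lower) and 2.48% of 20812 at 12 months (1.06% and 1.42%). At an unadjusted p under 0.05 were 0 of the 6 at 6 months and 3 at 12 months, beside 10.5% and 19.4% of all genes. Junb came nearest at 12 months, at 47.2, 23.0 and 21.8 CPM in 3xTg-AD and 11.4, 15.4 and 17.5 CPM in WT (1.15 ± 0.30, edgeR adjusted p = 0.0841). It was the gene of the 6 that DESeq2 called. Arc was at 21.1, 11.6 and 6.76 against 4.23, 7.25 and 6.69 CPM (1.22 ± 0.39, edgeR adjusted p = 0.132), with overlapping groups, and Fos at 12.0, 8.14 and 10.1 against 9.94, 11.6 and 8.78 CPM (0.06 ± 0.18). Junb and Arc had higher levels in striatal nuclei, which were more frequent in these 3xTg-AD libraries, and the part of striatal nuclei in these values was not tested. Of 124 tested genes of the 5 lists, edgeR called 0 over all neuron nuclei at 6 months, with 8 at an unadjusted p under 0.05 and 2 called by DESeq2 (Bdnf and Nptx1). At 12 months it called 3 higher in 3xTg-AD, namely Penk (1.98, edgeR adjusted p = 0.0355), Pdyn (1.58) and Inhba (0.90), with 41 at an unadjusted p under 0.05 and 14 called by DESeq2. Of all genes DESeq2 called 563 of 20951 at 6 months and 1642 of 20812 at 12 months. Penk was at 44.7, 30.3 and 19.5 CPM in 3xTg-AD and 4.50, 11.9 and 9.44 CPM in WT. Penk and Pdyn are on the lists of striatal markers too.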

How the data were processed

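Single-nucleus RNA sequencing was analyzed from the UMI counts per gene and nucleus that the authors made with Cell Ranger 6.1.1 against mm10 and deposited as filtered matrices, which are raw counts without normalization (185643 barcodes in 12 libraries). Nuclei with 500 to 10000 genes were retained, 184957 in all. Doublets were not called or removed and ambient RNA was not subtracted. The nuclei, gene lists and tests were chosen with earlier results of these data known.

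Neuron nuclei were clustered (k-means, 60 clusters, 40 components, 2000 variable genes, scikit-learn 1.9.0). Clusters were named from marker lists. Counts were summed per library and state, and edgeR 4.0.16 (R 4.3.3) gave quasi-likelihood tests after TMM normalization and filterByExpr, with the library as a block where both sides came from it, and genes were called when the Benjamini-Hochberg adjusted p was under 0.05 and log2 changes exceeded 0.2 in size. CPM scale the UMIs of the summed nuclei to a common total. Shares were counted at 3000 UMIs and compared with two-sided exact permutation tests, run with Python 3.11.15. The named genes were the list members, the 15 called genes per direction with the largest change among those changed alike in 12 libraries with at least 20 CPM, and from each genotype comparison the 5 per direction with the smallest adjusted p whose libraries did not overlap. Further genes with values (Drd1) were named after they were seen. Alternatives were DESeq2 1.42.0, RLE normalization, no filter, other matching, other thresholds and leaving out libraries. The edgeR fits were tested on simulated data with 100 genes changed by 1 and 100 by 0.5 on the log2 scale. The simulation used the same expected profile for each library and the same dispersion for each gene. The changed genes were drawn from those above a minimum mean count. For active against matched nuclei 99 and 80 were called, and for the genotype difference of that contrast 70 and 12. Between genotypes in active nuclei 82 and 10 were called at 6 months and 84 and 11 at 12 months. Values of some listed genes are not reported here.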

Additional observations from a re-analysis of the deposited data

Results flagged for a closer look

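Values of single libraries in groups of 4 to 10 were checked for a gap to their neighbors, which chance gives in about 1 in 20 groups, and 3 of 22 groups had one. Among the 12-month libraries the share of active nuclei of 3xTg-AD replicate 2 stood apart, at 2.25% after thinning and 5.43% as deposited. Fos in the neuron nuclei outside the striatal clusters was at 17.6 CPM in 6-month 3xTg-AD replicate 1, above the other libraries.

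Several genes of the lists had a contrast of active and matched nuclei that differed between striatal and the other neuron clusters, by the test of the difference itself (edgeR, adjusted over 13845 genes). Larger in striatal nuclei on the log2 scale were the transcription factors Nr4a1 (by 1.86), Nr4a3 (1.25), Klf10 (0.96) and Npas4 (0.82), the signaling inhibitors Dusp6 (1.31), Rgs2 (0.89) and Dusp14 (0.79), the prohormone convertase Pcsk1 (0.63), the cochaperone Dnaja1 (0.43) and the mTOR activator Rheb (0.32). Smaller were Penk (-1.24), the chromatin remodeler Baz1a (-0.98), the receptor kinase inhibitors Errfi1 (-0.84), Spry2 (-0.60) and Spred2 (-0.30), the transcription factor Mef2c (-0.46), and the kinases and phosphatase of calcium signaling Camk2a (-0.35), Camk2b (-0.32) and Ppp3ca (-0.29), with the CREB kinase Rps6ka3 (-0.28). The adjusted p of these genes ranged up to 0.0429 for Rheb. Both sides of the contrast were chosen by the selecting genes, some of which had higher levels in striatal nuclei. The part of this choice in the differences was not tested.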

How the results depend on the processing

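The matched contrast, with 2592 genes called, gave 2934 without a filter (1357 higher and 1577 lower) and 2437 to 2579 without single libraries. It gave 1151 without the library as a block (889 higher and 262 lower) and 1520 in striatal clusters only. Matching of wider kinds gave 6211 against all neuron nuclei with none of the genes (2759 higher and 3452 lower) and 5568 on library and UMIs. Matn2 turned from -0.63 to 0.21 and 0.17 and Ano2 from -0.52 to 1.08 and 1.01 in the first and second of these wider matchings, and St6gal1 (0.066) and Sphkap (0.076) turned in striatal clusters only. Over 103 named genes of this contrast and all alternatives, 2294 values stayed on the same side, 41 lost the call and 6 reversed. The genotype difference of the contrast went from 0 to 32 calls without a filter and stayed at 0 without single libraries. Between genotypes in active nuclei, calls at 6 months went from 5 to 90 (no filter), 34 (DESeq2), 22 (at least 2 genes), 12 (12 libraries in 1 fit), 18 (without striatal clusters) and 1 to 8 (single libraries left out), and at 12 months from 60 to 809 (no filter), 252 (DESeq2), 14 (12 libraries in 1 fit), 12 (without striatal clusters) and 1 to 764 (single libraries left out). In all neuron nuclei they went from 266 to 563 (DESeq2) and 98 to 290 (single libraries left out) at 6 months, and from 516 to 797 (no filter), 1642 (DESeq2) and 68 to 1953 (single libraries left out) at 12 months. The share difference over both ages turned to -0.05955 at 2000 UMIs and lay between -0.0708 and 0.317 without single libraries, the lowest without 12-month 3xTg-AD replicate 2, and that at 6 months turned to 0.107 at the same mix of clusters. The cause of these changes was not tested. The settings on clusters and cluster mix were chosen after seeing the data. A filter on UMIs of glial and vascular genes and of both transmitter classes was not run for genes because it left 122 active nuclei, 0 to 40 per library. No paired analysis was possible because the labels number the libraries from 1 to 12 with no number shared between groups.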
